A study of Homo sapiens with 12 samples.

Results

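The genes of the cytosolic ribosomal proteins were followed through RNA sequencing in 12 libraries of HepG2, a line derived from a human liver cancer. Members were the protein-coding genes whose symbol is RPL or RPS followed by digits, with an optional A, X or L at the end, together with RPLP0, RPLP1, RPLP2 and RPSA. Pseudogenes, the RPS6K kinases and RPS4Y genes were left out. The rule found 81 genes among 62475 gene identifiers, 49 of the large and 32 of the small ribosomal subunit. It used no measured value.

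The 4 groups of 3 biological replicates were HDAC1_S434A cells with H89, HDAC1_S434A cells without H89, WT HDAC1 cells with H89 and WT HDAC1 cells without H89. HDAC1 is a histone deacetylase, S434A names a change of one serine to alanine, and H89 is an inhibitor of protein kinase A (PKA). All groups share the HepG2 background. The sources used here do not give the dose and duration of H89, the way the mutant cells were made or whether they are 1 clone. Gene counts carry no view of the substitution itself, so genotype rests on the labels. The design asks what the mutant and the inhibitor each changed, and whether the inhibitor acted differently on the mutant cells.

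A cytosolic ribosome is built from ribosomal RNA and about one copy of each ribosomal protein. The large subunit forms peptide bonds, and the small subunit reads the messenger RNA. The proteins are made in the cytoplasm, imported into the nucleolus and assembled on ribosomal RNA. Their messenger RNAs are short and very abundant, and most begin with a 5′ terminal oligopyrimidine (TOP) tract, a C followed by a run of pyrimidines. In growing cells this tract places translation of the messages under mTOR signalling, through the binding protein LARP1.

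The start-site sequences of the members on which the results below turn are shown because the TOP tract is the feature these messages have in common. RefSeq windows of GRCh38.p14 were available for 64 of the 81 members. Each line gives 40 bases before and 20 bases from the annotated start, 5′ to 3′ on the gene's strand. Capitals mark a C followed by at least 4 pyrimidines that begins within 5 bases of the annotated start. RPL9, RPS3A, RPL39 and RPL35 are among the members with large falls, RPS6 had a smaller one, RPLP2, RPL28 and RPS28 did not pass in S434A against WT without H89, and RPS27L is a close copy of RPS27.
RPL9: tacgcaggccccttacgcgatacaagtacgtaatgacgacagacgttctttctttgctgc
RPS3A: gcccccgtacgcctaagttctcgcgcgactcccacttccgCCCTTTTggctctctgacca
RPL39: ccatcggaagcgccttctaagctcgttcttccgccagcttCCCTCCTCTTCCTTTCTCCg
RPL35: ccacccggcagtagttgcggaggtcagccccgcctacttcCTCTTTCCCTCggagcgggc
RPS6: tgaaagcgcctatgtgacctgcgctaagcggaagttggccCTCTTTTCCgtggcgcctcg
RPLP2: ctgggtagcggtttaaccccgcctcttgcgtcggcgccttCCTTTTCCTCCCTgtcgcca
RPL28: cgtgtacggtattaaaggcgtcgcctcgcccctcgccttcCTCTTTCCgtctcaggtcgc
RPS28: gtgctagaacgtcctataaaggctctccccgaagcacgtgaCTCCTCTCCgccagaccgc
RPS27L: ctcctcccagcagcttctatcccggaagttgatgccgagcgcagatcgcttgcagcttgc

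These windows lie at chr4:39458903-39458962 on the minus strand (RPL9), chr4:151099588-151099647 on the plus strand (RPS3A), chrX:119791611-119791670 on the minus strand (RPL39) and chr9:124861938-124861997 on the minus strand (RPL35). The others lie at chr9:19380217-19380276 on the minus strand (RPS6), chr11:809927-809986 on the plus strand (RPLP2), chr19:55385892-55385951 on the plus strand (RPL28), chr19:8321456-8321515 on the plus strand (RPS28) and chr15:63157458-63157517 on the minus strand (RPS27L). The tract began exactly at the annotated start in every printed window that holds one, except RPS28, where it began 1 base later. Where a gene had several windows, the first with a tract was printed. A tract within 5 bases of the start was found for 53 of the 64 members (82.8%), against 25.2% of the 27305 genes with a window. Exactly at the start the shares were 71.9% of members and 5.14% of all genes. A gene counted if any of its windows matched. By window the shares within 5 bases were 72.2% of 79 member windows and 21.1% of all 35116 windows. Exactly at the start they were 58.2 and 4.07%. Of 3 short promoter motifs searched on both strands of the 300-base windows, CCGGAAG was present for 35.9% of members and 12.2% of all genes, AAGATGG for 12.5% and 7.11%, and TATAAA for 9.38% and 14%. A match of letters is a description, and annotated starts can be displaced by a few bases.

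The libraries held 17562754 to 37187794 counted read pairs. WT libraries without H89 were the deepest, at 27763604 to 37187794, and no library of another group held more than 22648485. The 95% Wilson interval of a member share reached at most 0.0148 percentage points to either side (counting error only). Of the members, 79 had enough counts to be tested, among 14435 genes. Expression of 10 of 10 hepatocyte genes was found, at a summed 46987 to 47952 CPM (counts scaled to library size with TMM factors) in S434A cells with H89, 38028 to 58819 CPM in S434A cells without H89, 46516 to 51179 CPM in WT cells with H89 and 81027 to 81279 CPM in WT cells without H89. By contrast, the fibroblast markers COL1A2 and DCN and the blood markers HBB and PTPRC had no counts. Of 6 fibroblast markers 4 had counts, at a summed 17.7 to 39.6 CPM, nearly all PDGFRB. Of 8 blood and endothelial markers, 5 had counts, nearly all LYZ, at a summed 2017 to 2074 CPM in S434A cells with H89, 2372 to 2894 CPM in S434A cells without H89, 1865 to 2034 CPM in WT cells with H89 and 4344 to 4469 CPM in WT cells without H89, and the part of these marker levels in the results was not tested. The libraries also differed in make-up. Mitochondrially encoded genes took 5.57 to 5.94% of counts in S434A cells with H89, 7.02, 4.09 and 3.16% in S434A cells without H89, 4.91 to 6.26% in WT cells with H89 and 1.48 to 1.51% in WT cells without H89. Over all genes, expression relative to the other libraries followed message length with a Spearman rho of 0.56 to 0.60 in S434A cells with H89, -0.17 to -0.07 in S434A cells without H89, 0.57 to 0.60 in WT cells with H89 and -0.59 to -0.58 in WT cells without H89. With GC content it was -0.48 to -0.33 in S434A cells with H89, 0.84, 0.76 and 0.17 in S434A cells without H89, -0.48 to -0.23 in WT cells with H89 and -0.10 to -0.06 in WT cells without H89. The median spread of a member between replicates was 0.15 (SD of log2 values) in S434A cells without H89, against 0.03 to 0.06 in the other groups.

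Ribosomal protein genes took 19.4 to 19.9% of all counts in WT cells without H89 and much less in each other group. Their share was 7.88, 7.89 and 7.90% in S434A cells with H89 and 9.46, 9.51 and 11.4% in S434A cells without H89. It was 7.73, 7.34 and 7.62% in WT cells with H89, against 19.5, 19.9 and 19.4% in WT cells without H89. The mean was 10.1 ± 1.13% in S434A cells without H89 and 19.6 ± 0.279% in WT cells without H89 (SD, n = 3 each). The 3 libraries of WT cells without H89 lay above all the others, and the groups of either genotype with H89 lay close together. In bulk samples, fewer cells of a type and less RNA per cell cannot be told apart, and a share of counts does not give the RNA amount per cell.

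**Figure D1:**
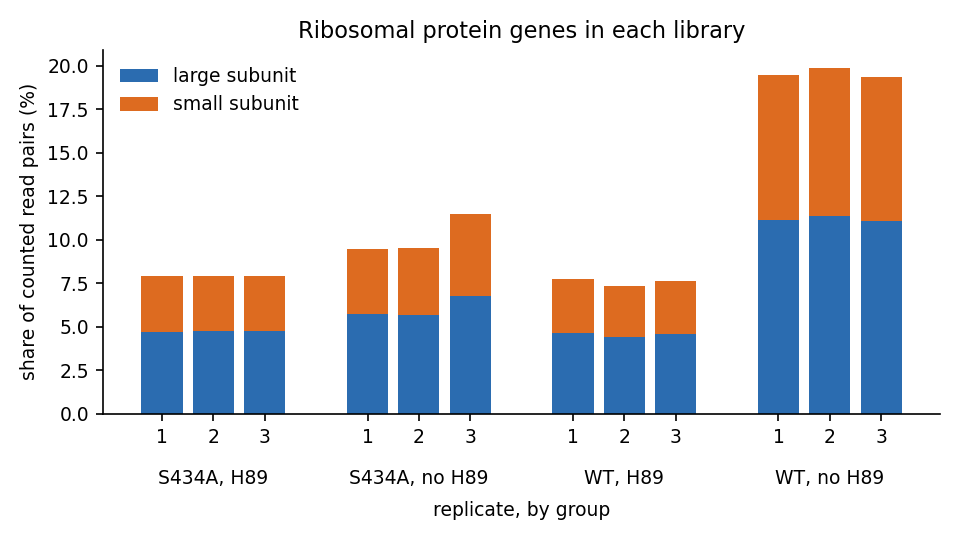
Share of counted read pairs (%) from large subunit (lower part of each bar) and small subunit (upper part) ribosomal protein genes in each of the 12 libraries, grouped by genotype and H89. The 3 WT libraries without H89 reach 19.4 to 19.9%, and the other 9 lie between 7.34 and 11.4%.

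Both subunits followed this order. Large subunit genes took 4.72 ± 0.0133% of counts in S434A cells with H89, 6.04 ± 0.625% in S434A cells without H89, 4.54 ± 0.113% in WT cells with H89 and 11.2 ± 0.160% in WT cells without H89 (SD, n = 3 each). Small subunit genes took 3.17 ± 0.0127%, 4.10 ± 0.506%, 3.02 ± 0.0902% and 8.38 ± 0.119% in the same groups. The ratio of large to small subunit counts was 1.485 to 1.503 in S434A cells with H89, 1.444 to 1.514 in S434A cells without H89 and 1.495 to 1.509 in WT cells with H89, against 1.335 to 1.339 in WT cells without H89. By summed counts the small subunit thus had the larger relative excess in WT cells without H89, and no library of another group reached that ratio. With 3 libraries a group, an exact permutation test between a pair of groups, counting both directions, cannot go below p = 0.10. No such test of the ratio was run. Medians over members did not all keep this order. The median log2 fold change in S434A against WT without H89 was -1.26 for the large and -1.20 for the small subunit. With H89 in WT it was -1.40 and -1.80. With trends on GC content and message length removed, as described below, these were -0.50 and -0.32, and -0.56 and -0.46.

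Per length of gene model, the small subunit gene RPS12 and RPS2, a protein at the entry of the messenger RNA channel, had the highest levels of all members over the 12 libraries, at 7567 and 7277 TPM. In the large subunit the highest were RPL13A at 5438 TPM, RPL41, which encodes the smallest protein of the ribosome, at 3236 TPM, and RPLP0, the base of the ribosomal stalk, at 2984 TPM. These levels divide by the deposited exon length, which for members is longer than the message (median 2907 against 709 bases of the principal transcript). With the principal transcript's length, chosen after seeing the data, the highest were RPS2 (10018 TPM), RPS18 and RPS27 in the small subunit and RPL13, RPL13A and RPLP0 in the large one. These are means over groups that differ: RPL13 had 5765 TPM and RPL13A 4337 TPM in WT cells with H89, while RPL13 had 7706 TPM and RPL13A 9822 TPM in WT cells without H89. RPS2, RPL13A and RPLP0 stood among the top 3 of their subunit on both scales, and RPS12 and RPL41 on the first alone.

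S434A against WT without H89 asks what the mutant changed in untreated cells. Most ribosomal protein messages were lower: 75 of 79 fell and none rose at an adjusted p under 0.05 (edgeR's quasi-likelihood test, Benjamini-Hochberg over all genes), where 29.3% of all genes tested fell and 29% rose. Past 2-fold, 46 fell, against 11.3% of all genes. With the trends of the libraries on GC content and message length removed, as described below, 52 members were lower, against 27.4% of all genes, and 12 higher. Past 2-fold 12 were then lower, against 3.03%. The median log2 fold change of members was -1.26, a 2.39-fold lower level, against -0.04 for all genes tested. It was -1.26 for the large and -1.20 for the small subunit. For the 75 genes that fell, the 3 S434A libraries all lay below the 3 WT libraries, a separation seen in 33.7% of all genes.

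**Figure D2:**
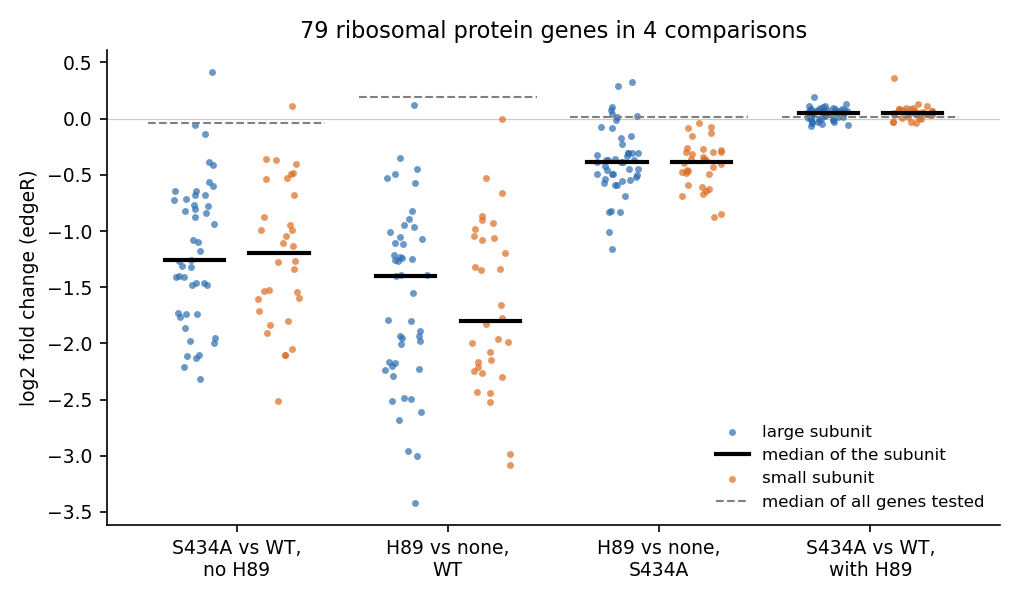
Log2 fold change of each of the 79 tested members (points, large subunit left and small subunit right in each pair), with the median of the subunit (black line) and of all genes tested (dashed line), in 4 comparisons. Medians of all members lie at -1.26, -1.66, -0.38 and 0.05 from left to right.

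H89 in WT cells asks what the inhibitor changed in cells with normal HDAC1. Again 76 of 79 members fell and none rose, where 30.9% of all genes fell and 38.8% rose. With the same trends removed, 57 were lower, against 34.5% of all genes, and 14 higher. Past 2-fold, 62 fell, against 15.8% of all genes, and 28 were lower with the trends removed, against 10.6%. The median log2 fold change was -1.66, a 3.15-fold lower level, with -1.40 for the large and -1.80 for the small subunit, against 0.20 for all genes. The WT libraries without H89 serve as the control in this and in the previous comparison, so both sets of falls share those libraries. With RLE scaling factors 4779 of all genes were higher and 5046 lower, against 5598 higher and 4466 lower here. The median of all genes then moved to 0.05 and that of members to -1.80.

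H89 in S434A cells asks the same of the mutant. Here 57 members fell and 1 rose, against 22.7% and 29.3% of all genes, but the falls were small, with a median log2 fold change of -0.38 (1.30-fold lower) against 0.01 for all genes. Past 2-fold RPL9 and RPL35 fell, 2 of 79 against 2.35% of all genes, followed by RPS9 (-0.87), RPS15A (-0.85), RPL15 (-0.83) and RPL8 (-0.83). Both subunits had a median of -0.38. With RLE scaling factors the direction of all calls tipped, with 3566 genes higher and 4273 lower against 4224 higher and 3280 lower here, and the members' median was -0.48. The count past 2-fold depended on S434A replicates without H89: it was 6 without replicate 2 and 0 without replicate 3.

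S434A against WT with H89 asks whether the mutant still differed in cells given the inhibitor. No member passed, and none of the 79 had an unadjusted p under 0.05. Of all genes tested 0% passed, with 589 at an unadjusted p under 0.05, and DESeq2 called 2. The fit shares its estimate of spread over all groups, including the more variable S434A cells without H89. With only the groups compared, 1593 of 13917 genes had an unadjusted p under 0.05 and 0 passed. With trends on GC content and deposited length removed and S434A replicate 1 without H89 left out, 12 genes passed as higher and 33 as lower. A lack of calls does not show equal levels. The median log2 fold change of members was 0.05, with a range of -0.06 to 0.36, against 0.01 for all genes. The lowest was RPL28 at -0.06 (SE 0.10), with an adjusted p of 0.9999 in edgeR. For 17 members the S434A libraries all lay above the WT libraries and for 62 they overlapped, while 8.8% of all genes were higher without overlap. Standard errors of members had a median of 0.08 on the log2 scale.

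The difference of H89 effects, S434A minus WT, tests whether the inhibitor acted differently in the mutant. At an adjusted p under 0.05 it was positive for 73 members and negative for none, against 24% of all genes in the positive direction, and it was positive past 2-fold for 48 members, against 11.7%. The 6 members that did not pass lay between -0.42 and 0.92. Once trends on GC content and message length were removed, as described below, 49 passed as positive and 11 as negative (22.7 and 23.2% of all genes). The median difference was 1.30 on the log2 scale (1.29 for the large and 1.32 for the small subunit), against 0.07 for all genes. It is built from all 4 groups and shares with the first comparison the S434A and WT libraries without H89.

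The largest falls were of structural proteins of either subunit. RPL9 (ENSG00000163682.17_7, hg19 chromosome 4, 39454207 to 39460551), a large subunit protein, had 616, 636 and 578 CPM in S434A cells with H89 and 1115, 1212 and 1775 CPM in S434A cells without H89. It had 595, 554 and 617 CPM in WT cells with H89, against 6361, 6350.4 and 6213 CPM in WT cells without H89. The 3 WT libraries without H89 stood far above the rest, and the S434A libraries without H89 lay between them and the H89 libraries with no overlap. RPL9 fell by 2.21 (SE 0.15, adjusted p = 7.27e-07) in S434A against WT without H89, by 3.42 (SE 0.15, adjusted p = 1.21e-08) with H89 in WT and by 1.16 (SE 0.14, adjusted p = 0.000163) with H89 in S434A.

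RPS3A (ENSG00000145425.10_7, hg19 chromosome 4, 152020776 to 152025794), a small subunit protein, had 1033, 1058 and 1031 CPM in S434A cells with H89 and 709, 1479 and 2116 CPM in S434A cells without H89. It had 979, 884 and 1025 CPM in WT cells with H89, against 8401, 8048 and 8089 CPM in WT cells without H89. The S434A replicates without H89 differed 3-fold among themselves, more than for any other member, and overlapped the H89 libraries. Its fall of 2.51 (SE 0.30) was the largest of all members in S434A against WT without H89, and the change lay between -2.19 and -2.90 when 1 of these 3 replicates was left out. With H89 in WT it fell by 3.09 (SE 0.31).

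RPL39, a short protein at the exit tunnel of the large subunit, had 574, 619 and 913 CPM in S434A cells without H89, against 2955, 3117 and 2995 CPM in WT cells without H89. With H89 its WT libraries were at 389.9, 356 and 384 CPM, a fall of 3.0 (SE 0.15) on the log2 scale. RPL35, also at the tunnel exit, had 551, 548 and 549 CPM in S434A cells with H89, against 972, 967 and 1373 CPM in S434A cells without H89, a fall of 1.01 (SE 0.11, adjusted p = 0.000108). The other members among the 6 lowest were RPL7 (-2.32), RPL34 (-2.13) and RPL21 (-2.11) for S434A without H89, and RPS15A (-2.98), RPL35 (-2.95) and RPL34 (-2.68) for H89 in WT.

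**Figure D3:**
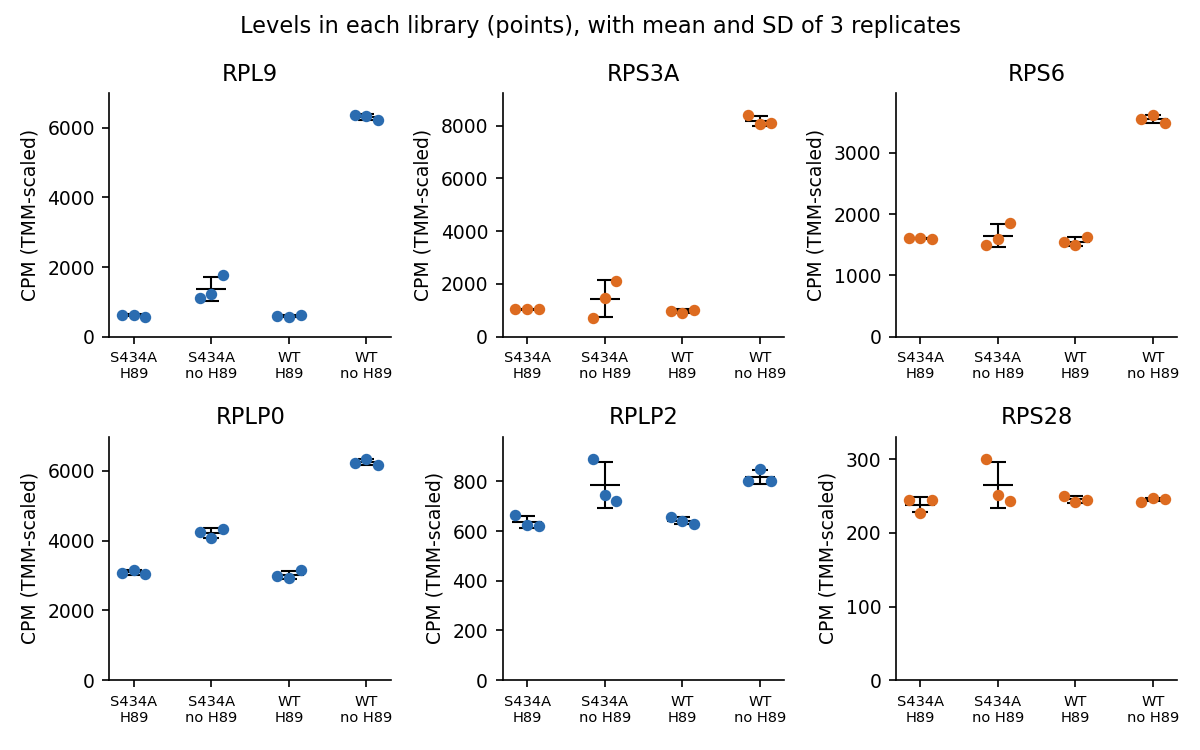
CPM (TMM-scaled) of 6 members in each library (points), with mean and SD of 3 replicates (black), in S434A with H89, S434A without H89, WT with H89 and WT without H89 from left to right. RPL9 and RPS3A are several times higher in WT without H89 than in the other groups, RPS6 and RPLP0 less so, and RPLP2 and RPS28 differ least.

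Among small subunit proteins with known roles, RPS6 is the substrate of the S6 kinases downstream of mTOR. It had 1611, 1606 and 1601 CPM in S434A cells with H89, 1492, 1595 and 1862 CPM in S434A cells without H89 and 1541, 1491 and 1625 CPM in WT cells with H89, against 3556, 3615 and 3487 CPM in WT cells without H89. Only the last group stood apart, and the other 3 overlapped. RPS6 fell by 1.11 (SE 0.07) in S434A against WT without H89 and by 1.19 (SE 0.07) with H89 in WT, and its change with H89 in S434A was -0.039 (adjusted p = 0.680).

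RPSA, also known as the laminin receptor, had 2174, 2014 and 2367 CPM in S434A cells without H89, against 4753, 4913 and 4671 CPM in WT cells without H89. RPS3, which lines the messenger RNA entry channel, averaged 2311 ± 135 CPM in S434A cells without H89 and 4248 ± 83.9 CPM in WT cells without H89 (SD, n = 3 each). RPS27A, made as a fusion of ubiquitin with a small subunit protein, had 899, 1183 and 1498 CPM in S434A cells without H89, against 4622, 4386 and 4412 CPM in WT cells without H89. No S434A library overlapped a WT library for these 3 genes. Log2 fold changes in this comparison were -1.13 (SE 0.06) for RPSA, -0.88 (SE 0.06) for RPS3 and -1.91 (SE 0.15) for RPS27A, and with H89 in WT they were -1.82, -1.32 and -2.30.

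RPS14 and RPS19 are known from anaemias caused by loss of 1 copy, in the 5q- syndrome and in Diamond-Blackfan anaemia. RPS14 had 1226, 1205 and 1270.4 CPM in S434A cells without H89, against 1733, 1791 and 1693 CPM in WT cells without H89. RPS19 had 1629, 1457 and 1575 CPM in S434A cells without H89, against 2425, 2617 and 2429 CPM in WT cells without H89. Both fell in this comparison by less than 2-fold, at -0.49 (SE 0.05) and -0.68 (SE 0.06). With H89 in WT they fell by 0.90 and 1.06.

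In the large subunit, RPL5 and RPL11 form a particle with 5S ribosomal RNA that can also bind MDM2, the regulator of p53. RPL5 had 1000.2, 1055 and 1233 CPM in S434A cells without H89, against 2329.9, 2304 and 2312 CPM in WT cells without H89. RPL11 had 954, 791 and 893 CPM in S434A cells without H89, against 2098, 2199.7 and 2051 CPM in WT cells without H89. They fell by 1.08 (SE 0.07) and 1.27 (SE 0.07). Neither passed for H89 in S434A, at -0.080 and 0.043. RPL5 did pass there, at -0.23, without S434A replicate 2 of the cells without H89, and at -0.21 without any 1 of the WT libraries with H89.

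RPL10, which joins the large subunit late in its maturation, averaged 1906 ± 72.3 CPM in S434A cells without H89 and 3056 ± 69.1 CPM in WT cells without H89, a fall of 0.68 (SE 0.05). RPL41 averaged 999.7 ± 139 CPM in S434A cells without H89 and 2751 ± 97.7 CPM in WT cells without H89, a fall of 1.46 (SE 0.09). RPS2 had 5254, 5138 and 6128 CPM in S434A cells without H89, against 13129.6, 13568 and 12939.6 CPM in WT cells without H89, a fall of 1.26 (SE 0.07), and RPL13A also fell by 1.26 (SE 0.07). RPS12, also among the highest levels per length, fell by 0.99.

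The stalk proteins RPLP0, RPLP1 and RPLP2, which recruit translation factors to the large subunit, differed from each other. RPLP0 had 3064, 3172 and 3052 CPM in S434A cells with H89, 4258, 4067 and 4342 CPM in S434A cells without H89 and 2989, 2917 and 3146 CPM in WT cells with H89, against 6229.65, 6353 and 6172 CPM in WT cells without H89. RPLP2 had 664, 624 and 619 CPM in S434A cells with H89, 892, 747 and 721 CPM in S434A cells without H89 and 657, 642 and 627 CPM in WT cells with H89, against 801, 848 and 803 CPM in WT cells without H89. For RPLP2 the S434A libraries without H89 overlapped their WT counterparts. S434A against WT without H89 gave -0.57 (SE 0.05) for RPLP0, -0.81 (SE 0.06) for RPLP1 and -0.056 (SE 0.08, adjusted p = 0.556) for RPLP2. With H89 in WT all 3 fell, by 1.05, 0.95 and 0.35.

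RPLP2 was one of 4 members that did not pass in S434A against WT without H89. RPS28, a small subunit protein (hg19 chromosome 19, 8386042 to 8388224), had 244, 226 and 245 CPM in S434A cells with H89, 301, 251 and 243 CPM in S434A cells without H89 and 249.7, 241 and 245 CPM in WT cells with H89, against 243, 248 and 246 CPM in WT cells without H89. All 4 groups overlapped, and RPS28 passed no comparison, with log2 fold changes of 0.11 (SE 0.08) for S434A without H89 and 0.00 (SE 0.08) for H89 in WT. RPL28 had 886, 697 and 651 CPM in S434A cells without H89, against 809.9, 834 and 806 CPM in WT cells without H89, at -0.13 (SE 0.10, adjusted p = 0.267). It fell by 0.57 with H89 in WT. Without S434A replicate 1, RPLP2 and RPL28 passed in S434A against WT without H89, at -0.16 and -0.28.

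The only member that rose in any 2-group comparison was RPL14, a large subunit protein, with H89 in S434A. It had 819.7, 851 and 811 CPM in S434A cells with H89, against 629, 619 and 785 CPM in S434A cells without H89. The libraries did not overlap, and the change was 0.29 (SE 0.08, adjusted p = 0.0161). It did not pass without S434A replicate 2 of the cells without H89 (0.10), without any 1 of the 6 H89 libraries (0.14 to 0.17) or with RLE factors (0.19). Its direction depends on the correction for GC content and length, at -0.44 with the deposited gene length and 0.48 with the message length. The other members with the highest values in that comparison did not pass, at 0.33 for RPL36A, 0.10 for RPL23A and 0.08 for RPL22.

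Of the tissue-restricted copies, RPL3L, a muscle paralogue of RPL3, had 13, 12 and 11 counts in S434A cells with H89, 13, 13 and 10 in S434A cells without H89, 10, 16 and 9 in WT cells with H89, and 14, 14 and 11 in WT cells without H89. It did not pass in any comparison. RPL10L, a testis copy of RPL10, had no count in any library, where 3 counts correspond to 0.0807 to 0.171 unscaled CPM. RPL39L, a copy of RPL39, had 1 count, in WT replicate 3 without H89. RPL10L and RPL39L are the 2 members that were not tested.

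RPS27L, a copy of RPS27 that is induced by p53, had 434.9 CPM on average in WT cells without H89, where the median member in a library had 2566 to 2646 CPM. It had 92.9, 98.9 and 96.2 CPM in S434A cells with H89, 71.45, 99.1 and 133 CPM in S434A cells without H89 and 92.1, 80.7 and 98.5 CPM in WT cells with H89, against 442, 438 and 426 CPM in WT cells without H89. The first 3 groups overlapped, well below the fourth. RPS27L fell by 2.10 (SE 0.18) in S434A against WT without H89 and by 2.27 (SE 0.18) with H89 in WT. Its window holds no TOP tract.

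Among members with a window, the 53 with a tract had medians of -1.11 for S434A without H89 and -1.35 for H89 in WT, and the 10 tested members without one -1.36 and -1.97.

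Most members had a mean of at least 100 CPM over all libraries (73 of 79). Those below it included RPL3L, RPL17, RPL26, RPL36A and RPS10. RPL17, RPL36A and RPS10 share exons with rows of readthrough transcripts, so their low counts are uncertain. Exons of RPS3A also overlap rows of SH3D19, those of RPS28 rows of KANK3 and NDUFA7 and those of RPL10 rows of DNASE1L1, and without stated strand the reads of overlapping genes cannot be told apart. Ribosomal protein genes also have many processed pseudogenes. The 1588 pseudogene rows named after members held 1.08 to 1.14% of the members' own counts in S434A cells with H89, 1.23 to 1.26% in S434A cells without H89, 1.09 to 1.11% in WT cells with H89 and 1.22 to 1.32% in WT cells without H89. Reads that fit both a member and a pseudogene cannot be assigned with certainty.

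The members' falls varied with the base composition of their messages. Over the 79 members, which share libraries and are not replicates, Spearman's rho of the log2 fold change with GC content was 0.59 for S434A without H89, 0.44 for H89 in WT and -0.24 for H89 in S434A. Among all 12127 genes with a principal transcript the same values were 0.49, -0.09 and -0.71. RPL9 and RPS3A, among the largest falls, have 42.4 and 44.1% GC, and RPLP2, among the smallest, has 63.6% GC.

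**Figure D4:**
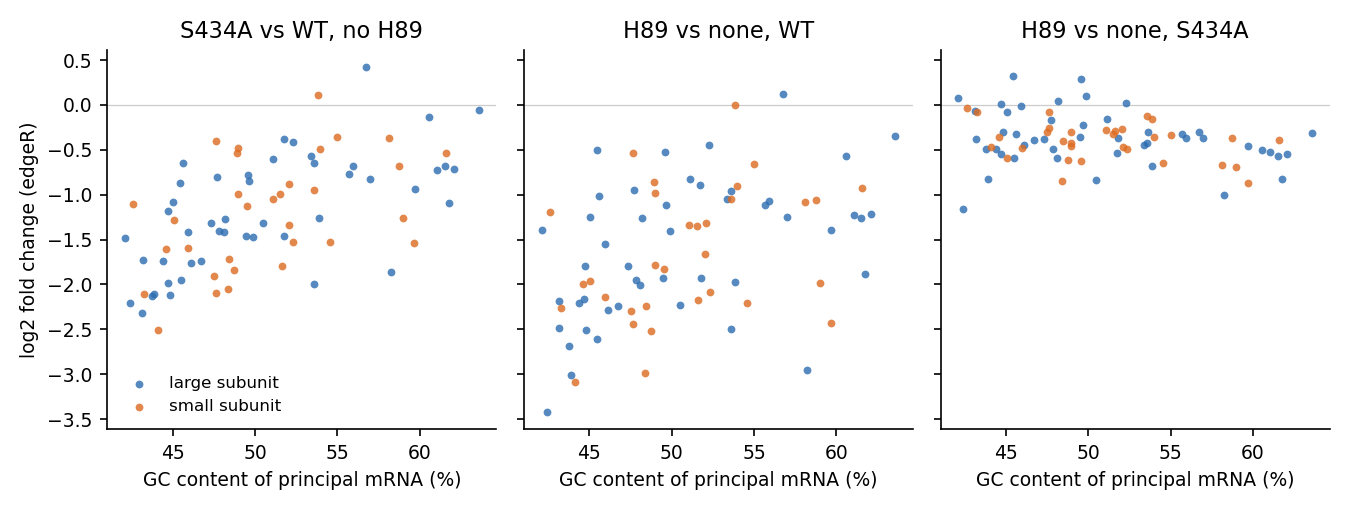
Log2 fold change of the 79 members (points, coloured by subunit) against the GC content of the principal messenger RNA (%), in 3 comparisons. In S434A against WT without H89 the points rise with GC content (Spearman rho 0.59), and with H89 in S434A they do not (rho -0.24).

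Members are short: 71 of the 81 have a principal transcript under 1500 bases, and their median is 709 bases against 2796 for the genes tested. Other short genes also had negative medians. In S434A against WT without H89, the 57 members of up to 1000 bases had a median of -1.31 and the 829 other genes of that length -0.73. With H89 in WT the medians were -1.89 for the members and -1.11 for the other genes, and with H89 in S434A -0.42 and -0.35. When a smooth trend of every library on GC content and principal message length was removed, an alternative chosen after seeing the data, the members' median was -0.43 for S434A without H89, -0.50 for H89 in WT and -0.10 for H89 in S434A.

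Under that correction 12 members were lower past 2-fold in S434A against WT without H89 (3.03% of all genes), 28 with H89 in WT (10.6%) and 4 with H89 in S434A (2.91%), and the difference of H89 effects was above 2-fold for 13 (3.74%). At any fold 52 were lower and 12 higher for S434A without H89 (27.4 and 28.6% of all genes), and 57 lower and 14 higher for H89 in WT (34.5 and 37.4%). RPL9 kept a value of -0.94 and -2.19 in these comparisons, RPS3A -1.5 and -2.07, RPS2 -0.91 and -1.14, and RPS27L -2.18 and -3.41. RPS14, RPLP2 and RPL28 were higher in both (0.22 and 0.25, 0.36 and 0.57, and 0.25 and 0.32), and RPL12 was higher with H89 in WT (0.73). The annotation gives RPL37, RPL27A and RPS27L principal transcripts above 4000 bases, so the correction treats these members as long messages. With the deposited gene length in place of the message length the medians were -0.99, -1.26 and -0.33. How much of the members' fall goes with message length and composition of the libraries was not tested beyond these values.

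**Figure D5:**
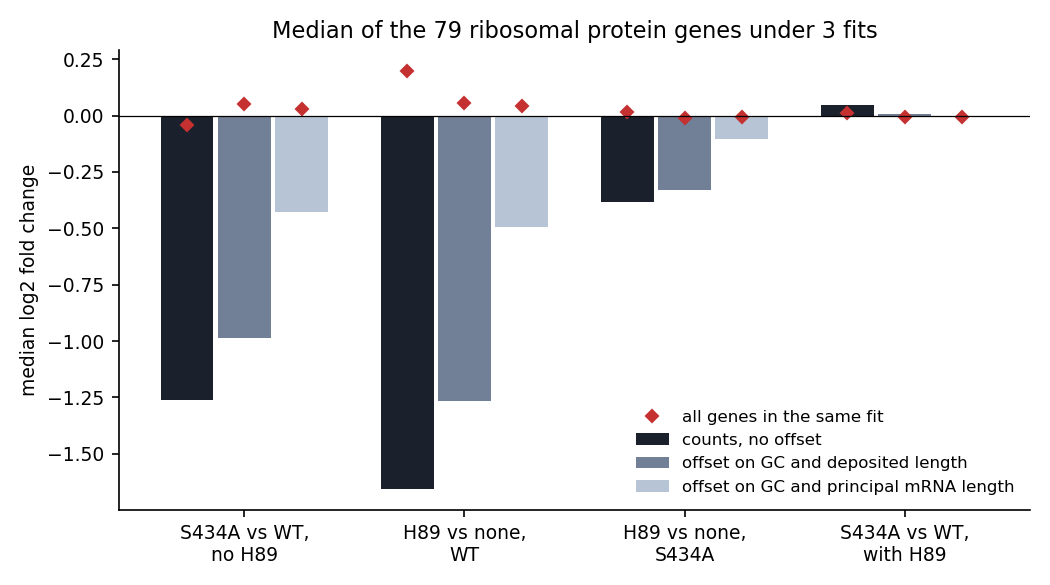
Median log2 fold change of the 79 members (bars) in 4 comparisons, for the counts without an offset and after removal of the trend on GC content and either length; red diamonds give the median of all genes in the same fit. The bars stand at -1.26, -0.99 and -0.43 for S434A without H89 and at -1.66, -1.26 and -0.50 for H89 in WT.

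Subunit genes outside the name rule did much the same. These were 7 genes, among them FAU, a fusion of a ubiquitin-like protein with a small subunit protein. In S434A against WT without H89 6 fell (median -1.31), where 29.3% of all genes fell. With H89 in WT 6 fell (-1.32), where 30.9% of all genes fell. FAU averaged 358 CPM in S434A cells without H89 and 889 CPM in WT cells without H89, a log2 fold change of -1.31 (SE 0.08). RACK1, a signalling scaffold on the small subunit, was the exception at -0.034 (adjusted p = 0.742) and -0.16 with H89 in WT (adjusted p = 0.0990), with means of 1771 CPM in S434A cells and 1814 CPM in WT cells without H89.

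Other messages known for a TOP tract, mostly translation factors, were tested for 23 of 25 genes. In S434A against WT without H89, 18 fell and 3 rose, with a median of -0.61, where 29.3% of all genes fell and 29% rose. The elongation factor gene EEF1B2 fell by 1.66, TPT1, the translationally controlled tumour protein, was at -1.75 and EEF1D at -1.01. PABPC1, the poly(A)-binding protein, rose by 0.84. With H89 in WT 13 fell and 4 rose (median -0.61), where 30.9% of all genes fell and 38.8% rose. With H89 in S434A 7 fell and 9 rose (median 0.14), close to the 22.7% of all genes that fell and 29.3% that rose. EEF1A1, the most abundant of them, was at -0.29 for S434A without H89 and did not pass for H89 in WT (-0.12, adjusted p = 0.187).

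Ribosome biogenesis factors had smaller median falls. Of 38 tested, 21 fell and 3 rose in S434A against WT without H89 (median -0.53), beside 29.3% and 29% of all genes. For H89 in WT 18 fell and 6 rose (-0.30), beside 30.9% and 38.8%. FBL, which methylates ribosomal RNA, fell by 0.91 and 1.49, and EIF6, which keeps the subunits apart, by 0.81 and 1.59. RNA polymerase I and its factors transcribe ribosomal RNA. Of 19 such genes, 10 fell and 3 rose for S434A without H89 (median -0.47), beside 29.3% and 29% of all genes. For H89 in WT 9 fell and 4 rose (-0.50), beside 30.9% and 38.8%. With GC content and message length removed 7 were lower and 5 higher for S434A without H89, beside 27.4% and 28.6%. For H89 in WT 9 were then lower and 6 higher, beside 34.5% and 37.4%. In S434A against WT without H89 POLR2F, a subunit shared by the polymerases, fell by 1.28 and POLR1D by 1.05. POLR1A, the largest subunit and a long message, rose by 1.66. With GC content and message length removed POLR2F was at -1.44, POLR1D at 0.027 (adjusted p = 0.746) and POLR1A at 0.53.

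Genes that control TOP messages and ribosomal protein transcription had positive medians. Of 21 tested, 11 rose and 5 fell in S434A against WT without H89 (median 0.28), beside 29% and 29.3% of all genes. For H89 in WT 13 rose and 4 fell (0.92), beside 38.8% and 30.9%. MTOR averaged 103 CPM in S434A cells without H89 and 36.5 CPM in WT cells without H89, a rise of 1.49 (SE 0.11). LARP1 rose by 1.27, and RHEB, the activator of mTOR, fell by 0.96. MTOR and LARP1 are long messages, and with GC content and message length removed they were at 0.51 and 0.47. With GC content and message length removed the medians for S434A without H89 and H89 in WT were -0.59 and -0.45 for the outside subunit genes, -0.25 and -0.38 for other TOP messages, -0.34 and -0.11 for biogenesis factors, -0.06 and -0.13 for RNA polymerase I and 0.27 and 0.38 for the control genes. In S434A against WT with H89 0% of all genes tested passed in the fit over all 12 libraries, so no list could have a member that did.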

How the data were processed

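Counts of read pairs per gene were made by the authors with featureCounts 2.0.1 (-p -t exon -g gene_id, hg19 annotation), per the file headers, after alignment with Bowtie 0.12.2, per the submitters' processing notes. The header sets no option for strand or multimapping, and neither trimming nor the kit is given in the sources used here. The 12 libraries are RNA of HepG2 cells in 4 groups of 3.

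R 4.3.3 and edgeR 4.0.16 were used for a single fit over the 12 libraries (TMM scaling, filterByExpr with a minimum count of 10, robust quasi-likelihood tests), adjusted by Benjamini-Hochberg over 14435 genes. "Rose" and "fell" refer to adjusted p-values under 0.05, and calls past 2-fold use the series' thresholds. Symbols for 58676 of 62475 identifiers, message lengths and GC content came from GENCODE of another build through the identifiers. Named were 17 members of known role, the 6 lowest and 4 highest per comparison, the top 3 of each subunit per length, and up to 4 genes of other lists by p; some of these are not reported here. Members and lists were chosen with earlier results of these data known. Offsets were splines with 5 degrees of freedom. DESeq2 1.42.0 and limma 3.58.1 (voom) were alternatives. Steps were tested on simulated data.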

Additional observations from a re-analysis of the deposited data

Results flagged for a closer look

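The effect of H89 differed between S434A and WT cells for 73 of the 79 members tested, by a test of the difference itself (edgeR, adjusted p under 0.05). The difference, S434A minus WT on the log2 scale, was positive for each of them. Of all 14435 genes tested, 3469 (24%) passed as positive and 3466 as negative. Under the offset on GC content and message length 49 members passed as positive and 11 as negative, against 22.7 and 23.2% of all genes. Among named small subunit genes it was 2.62 for RPS3A, 2.19 for RPS27L, 2.00 for RPS27A, 1.30 for RPS2, 1.20 for RPSA, 1.16 for RPS6, 1.03 for RPS12, 0.85 for RPS3, 0.69 for RPS19, 0.55 for RPS14 and 0.32 for RPS16. Among named large subunit genes it was 2.41 for RPL7, 2.26 for RPL9, 2.20 for RPL21, 1.57 for RPL41, 1.30 for RPL11, 1.29 for RPL13A, 1.16 for RPL5, 0.78 for RPLP1, 0.70 for RPL10, 0.60 for RPLP0 and 0.35 for RPL7A. Without WT replicate 2 of the cells without H89, RPS16 no longer passed (0.30). Under that offset RPL7A, RPS14 and RPS16 were negative. Groups of 3 libraries were not tested for single outlying values, but each library was left out in turn, with the counts given below.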

How the results depend on the processing

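Counts of members past 2-fold were 46 (S434A vs WT without H89), 62 (H89 in WT), 2 (H89 in S434A), 0 (genotypes with H89) and 48 (difference of H89 effects). The shares of all genes tested were 11.3, 15.8, 2.35, 0 and 11.7%. With 1 library left out the counts of members ranged over 46 to 49, 61 to 69, 0 to 6, 0 to 0 and 48 to 49. Offsets on GC content and message length gave 12, 28, 4 and 13 for the comparisons other than S434A vs WT with H89. The shares of all genes were then 3.03, 10.6, 2.91 and 3.74%. For H89 in S434A the count was also 1 with limma-voom, 11 with the offset on GC content and deposited length, 11 with that offset and the replicate block, and 5 with that offset without S434A replicate 1 of the cells without H89. Whether the replicate numbers pair the libraries is not settled. Same-number correlations ran from -0.15 to 0.47, 4 of 18 were over 0.1, and 7 of 12 libraries correlated best with their own number. The replicate block gave 1 member for H89 in S434A and moved no other count by over 1.5 times. Shares of counts rose to 8.38, 8.01 and 19.9% without mitochondrial genes in the denominator and to 8.14, 7.81 and 19.9% with a wider membership that adds subunit genes outside the name rule, for S434A with H89, WT with H89 and WT without H89.

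Signs turned for single members. With the offset on deposited length RPL5 was at 0.069 for S434A vs WT without H89 and -0.074 in the difference of H89 effects, RPLP2 at 0.20 and RPL12 at 0.090 for H89 in WT, and RPLP2 at 0.082 and RPL14 at -0.44 for H89 in S434A. Adding the replicate block gave 0.20, 0.091, 0.082 and -0.43 for these last 4, and leaving out S434A replicate 1 of the cells without H89 gave 0.20, 0.076, 0.10 and -0.24. With the offset on message length RPS14, RPLP2 and RPL28 were at 0.22, 0.36 and 0.25 for S434A vs WT without H89. RPS14, RPS19, RPLP2 and RPL12 were at 0.25, 0.046, 0.57 and 0.73 for H89 in WT. RPS19, RPL10, RPLP2, RPL41, RPS12 and RPL22 were at 0.049, 0.041, 0.16, 0.026, 0.0066 and -0.66 for H89 in S434A. RPS14, RPLP2, RPL28, RPS16 and RPL7A reached -0.25, -0.41, -0.34, -0.44 and -0.33 in the difference of H89 effects. RPS28 was at -0.14 for H89 in WT with only the groups compared. The cause was not tested. Over named members, 3423 values passed in both fits with the same direction or passed in neither, where the sign was not compared. A further 52 newly passed, 46 no longer passed and 33 turned sign with a pass in at least 1 fit. RPL10L and RPL39L give no fold change at these depths.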
